A study of Caenorhabditis elegans with 52 samples.

Results

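The vitellogenin genes of *C. elegans* are vit-1, vit-2, vit-3, vit-4, vit-5 and vit-6, 6 of the 19973 protein-coding genes on the autosomes and X in the annotation. Nucleosomes were taken from 1 kb upstream of each gene to 500 bp downstream of it, as called from native H3 ChIP-seq of isolated germ nuclei. These windows held 168 of 545572 nucleosomes in the low-salt *prde-1* table, 174 of 568635 in the high-salt *prde-1* table, 156 of 541779 in the low-salt auxin table and 161 of 550900 in the high-salt auxin table.

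Each table compares a pair of libraries of young adults, and the authors merged 2 samples into each of the 8 libraries. By the methods *prde-1* animals grew for more hours than wild type before harvest, to a like number of embryos. Hours of growth and genotype therefore cannot be told apart. In 2 tables the libraries set the mutant *prde-1(mj207)*, which lacks a subunit of the complex that binds upstream of piRNA genes, against the wild-type strain VC2010. The other 2 set 1 mM auxin against ethanol, each for 3 h, in the strain YL701, in which the nucleosome remodeler ISW-1 carries eGFP and an auxin-inducible degron. Both arms of that strain also carry TIR1, the plant F-box protein that auxin needs, under the germline promoter mex-5p. After immunoprecipitation the chromatin on beads was last washed in 150 mM NaCl, here called low salt, or in 500 mM NaCl, here called high salt. The genotype field of the high-salt *prde-1* and wild-type samples and the salt field of some ISW-1 samples contradict the titles. Groups follow the titles, so the sign of the high-salt *prde-1* comparison would turn if the genotype field were right. ISW-1 loss cannot be checked in H3 data, and the native preparation removes cell debris by straining, and a carry-over of somatic nuclei was not tested. With 1 merged library per group there is no replicate error and no test, and every value below is a description of these libraries.

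Vitellogenins are the yolk lipoproteins of the embryo. The adult hermaphrodite intestine makes and secretes them, and oocytes take them up through the receptor RME-2, so germ cells hold yolk without using the genes. Here the genes stand for chromatin that is strongly used in one somatic tissue and not in the germ line; that silence is background, as the tables hold no RNA. vit-1 to vit-5 encode the large yolk polypeptides, and vit-6 encodes a precursor that is cleaved into a pair of smaller ones.

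On assembly ce11, vit-1 (WBGene00006925) lies at chrX:7727889-7733168 on the plus strand, vit-2 (WBGene00006926) at chrX:5101042-5106169 on the plus strand and vit-5 (WBGene00006929) at chrX:3403471-3408603 on the plus strand. vit-3 (WBGene00006927) at chrX:3567355-3572549 and vit-4 (WBGene00006928) at chrX:3558769-3563965 are neighbours on the minus strand. vit-6 (WBGene00006930) is the only one on an autosome, at chrIV:8261157-8266459 on the plus strand. The genes are 5128 to 5303 bp long with 5 or 6 exons, and 45.0% to 48.5% of their bases are G or C, against a median of 36.4% over all protein-coding genes. Their upstream kilobases have 30.1% to 35.8% GC. Other annotated genes reach into every window (set-12 at vit-1, C42D8.9 at vit-2, T27A10.5 at vit-3, the ncRNA F59D8.3 at vit-4, unc-78 at vit-5 and K07H8.8 at vit-6), so nucleosomes at the window ends are shared with them.

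The family falls into copies of very different likeness. vit-3 and vit-4 were identical at 97.9% of 5167 aligned bases, vit-4 and vit-5 at 97.2% and vit-3 and vit-5 at 96.8%. vit-1 and vit-2 matched each other at 93.0% of 5126 bases. Across these groups identity was 66.8% to 67.8%, and vit-6 matched the other 5 genes at 55.4% to 57.1%. The 30 bases below come from the middle of the longest repeated stretch of vit-3 and from the same alignment columns of the other X-linked genes, RefSeq assembly WBcel235, in the direction of transcription, and capitals mark bases that differ from vit-3. They are shown because the first 3 cannot be told apart by a read that lies within them.
vit-3: agactgatctttccgagatcaagttcgaca
vit-4: agactgatctttccgagatcaagttcgaca
vit-5: agactgatctttccgagatcaagttcgaca
vit-1: agacCgaGctCtccCaAatcaagtAcAaca
vit-2: agacCgaActCtccCaAatcaagtAcAaca
These lie at chrX:3569298-3569327 (vit-3, minus strand), chrX:3560734-3560763 (vit-4, minus strand), chrX:3406689-3406718 (vit-5), chrX:7731101-7731130 (vit-1) and chrX:5104238-5104267 (vit-2). vit-1 and vit-2 each differ from vit-3 at 7 of the 30 positions.

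The promoters carry short elements known from vitellogenin genes, VPE1 with the letters TGTCAAT and VPE2 with the letters CTGATAA, which resembles a GATA factor site. Both strands were searched from 250 bases before the annotated 5′ end to 50 bases from it, and no 2 matches overlapped. VPE1 was present in all 6 promoters and in 5.77% of the 19973 protein-coding promoters of the same 300 bases, and VPE2 was present in 5 of 6 (all but vit-3) and in 8.15% of promoters. The letters of both stood in 5 of 6 vitellogenin promoters and in 0.506% of all promoters. The following 30 bases are printed in the direction of the gene, with both elements in capitals on whichever strand they matched, because the nucleosomes beside the 5′ ends are described relative to them.
vit-1: TGTCAATgtgccaaattaaagccTTATCAG
vit-5: CTGATAAtgcggtaaaagttcagATTGACA
vit-6: ATTGACAcctgtctcaatgaCTGATAAgca
vit-2: aatcgaacataTGTCAATctttagccgtat
vit-3: agtgcctgccaTGTCAATtaaacacactgg
vit-4: atcgcctgtccTGTCAATtaaacacactgg
These are chrX:7727774-7727803 (vit-1), chrX:3403344-3403373 (vit-5), chrIV:8260994-8261023 (vit-6), chrX:5100974-5101003 (vit-2), chrX:3572581-3572610 (vit-3, minus strand) and chrX:3564006-3564035 (vit-4, minus strand). The matches lie between 163 and 42 bases before the 5′ ends. Because both elements are known from vitellogenin genes, their shares in these promoters are no independent evidence of enrichment. A match is a run of letters only, and binding was not measured.

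In germ nuclei vit-1, vit-2 and vit-6 carried less H3 signal than most genes in most libraries, and vit-3, vit-4 and vit-5 were mixed. The lowest median over its 8 levels was that of vit-1. Occupancy is the H3 signal minus input at a nucleosome's summit, which the authors brought to a common library total and which is never below 0, and a gene's level is the median over its nucleosomes. Of the 48 levels (6 genes in 8 libraries), 37 were below the median of all protein-coding genes with at least 10 nucleosomes. Below the median of such genes on their own chromosome were 33. By gene, the level was below the median of all such genes in 8 of 8 libraries at vit-1 and vit-2 and in 7 at vit-6. At vit-4 and vit-5 it was below in 5 and at vit-3 in 4. In wild type at high salt 3 of 6 genes were below that median, and 1 of 6 was below that of its own chromosome. A nucleosome listed at 0 has no signal left after subtraction, and the read depth behind the values is unknown. Over all vitellogenin nucleosomes the share at 0 was 36.9% in *prde-1* and 25.0% in wild type at low salt, 23.0% in both at high salt, 51.3% in auxin and 26.9% in ethanol at low salt, and 28.6% in auxin and 30.4% in ethanol at high salt. The same share over all nucleosomes was 18.0% to 24.2%. On X, which holds 5 of the 6 genes, it was 22.2% in *prde-1* and 22.4% in wild type at low salt. At high salt the X share was 21.3% in *prde-1* and 21.8% in wild type. It was 23.8% in auxin and 19.9% in ethanol at low salt, and 21.6% in auxin and 26.7% in ethanol at high salt. Because the tables were normalized separately, levels set across tables compare a gene's place among genes better than its signal.

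**Figure D1:**
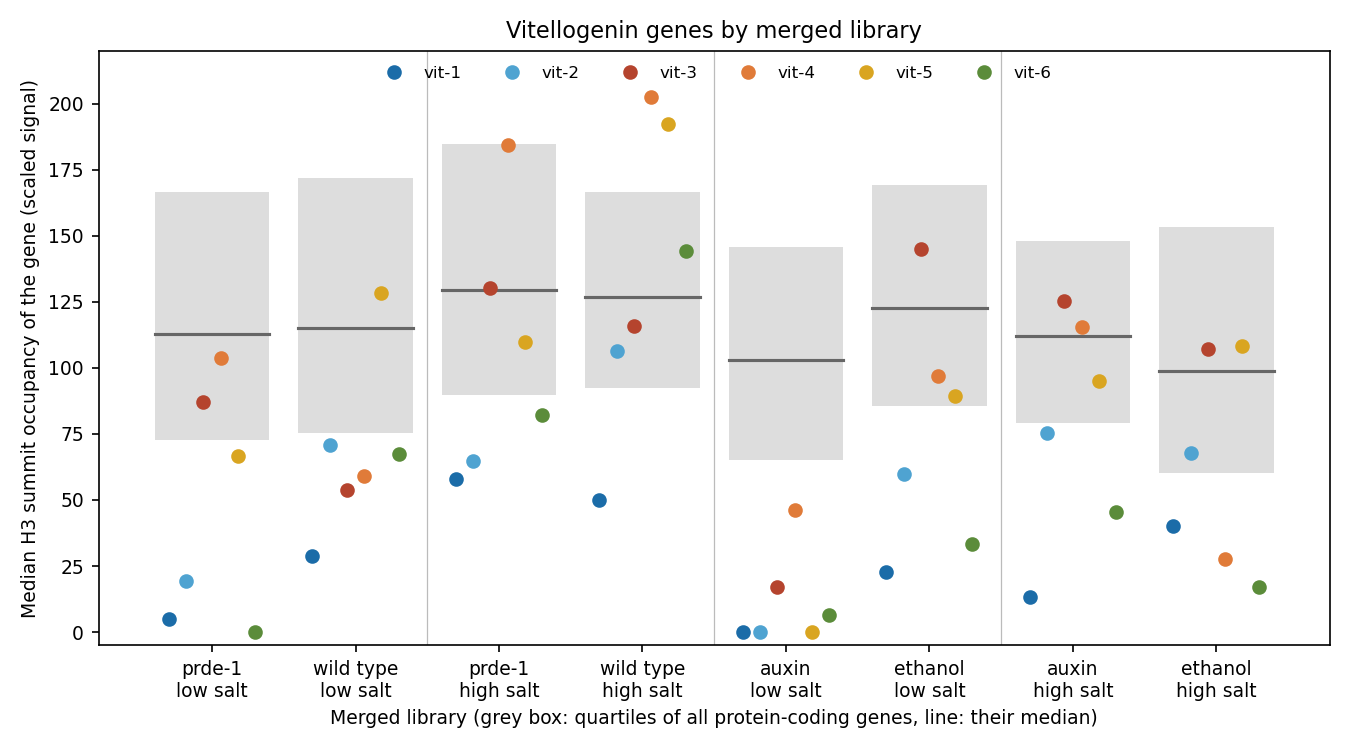
Median H3 summit occupancy (vertical axis, scaled signal) of each vitellogenin gene (coloured points) in each of the 8 merged libraries. The grey box spans the middle of all protein-coding genes between their quartiles and the line is their median. vit-1 is below the line in all 8 libraries, and in the low-salt auxin library all 6 genes lie below the box, between 0 and 46.2.

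vit-1 had the lowest level of the X-linked copies in every library except ethanol at high salt, where vit-4 was lower, and it shared a level of 0 with vit-2 and vit-5 in auxin at low salt. Its level was 5.02 in *prde-1* and 28.8 in wild type at low salt, and 57.8 in *prde-1* and 50.1 in wild type at high salt. It was 0 in auxin and 22.9 in ethanol at low salt, and 13.2 in auxin and 40.0 in ethanol at high salt. Between 0 and 13.4% of protein-coding genes had a lower level in any 1 library. The median gene of the same libraries lay between 98.6 and 129.6, so vit-1 stood below it in 8 of 8. Between 30.0% and 60% of its 30 to 35 nucleosomes were at 0.

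vit-2, the closest copy of vit-1, was low in the same libraries but less so. Its level was 19.3 in *prde-1* and 70.7 in wild type at low salt, and 64.9 in *prde-1* and 106 in wild type at high salt. It was 0 in auxin and 59.7 in ethanol at low salt, and 75.4 in auxin and 67.8 in ethanol at high salt. vit-2 was below the median gene in 8 of 8 libraries, and its level exceeded that of vit-1 in all but the low-salt auxin library, where both were at 0. Its share at 0 ranged from 23.5% in wild type at high salt to 51.5% in auxin at low salt.

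vit-3 stood on either side of the median gene, depending on the library. Its level was 86.9 in *prde-1* and 53.7 in wild type at low salt, and 130.1 in *prde-1* and 116 in wild type at high salt. It was 17.1 in auxin and 145 in ethanol at low salt, and 125 in auxin and 107 in ethanol at high salt. It lay below the median gene in 4 of 8 libraries, and only 16 to 18 nucleosomes stand behind each value.

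vit-4 ranged more widely than its neighbour. Its level was 104 in *prde-1* and 59.1 in wild type at low salt, and 184 in *prde-1* and 202 in wild type at high salt. It was 46.2 in auxin and 96.8 in ethanol at low salt, and 115 in auxin and 27.6 in ethanol at high salt. The wild-type high-salt value exceeded that of 87.4% of genes and the ethanol high-salt value that of 8.22%, with 18 to 20 nucleosomes in each table.

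vit-5, the third copy of this group, had 28 to 32 nucleosomes. Its level was 66.7 in *prde-1* and 128 in wild type at low salt, and 109.8 in *prde-1* and 192 in wild type at high salt. It was 0 in auxin and 89.2 in ethanol at low salt, and 95.03 in auxin and 108 in ethanol at high salt. By level *prde-1* was lower than wild type and auxin lower than ethanol at both salts, while the median of the log2 changes of its single nucleosomes was 0.16 in auxin against ethanol at high salt. In auxin at low salt 18 of its 31 nucleosomes were at 0, against 8 of 31 in ethanol.

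vit-6 stands apart from the family by its place on chromosome IV and by its sequence. Its level was 0 in *prde-1* and 67.2 in wild type at low salt, and 82.1 in *prde-1* and 144 in wild type at high salt. It was 6.54 in auxin and 33.2 in ethanol at low salt, and 45.6 in auxin and 17.0 in ethanol at high salt. It was below the median gene in 7 of 8 libraries, the exception being wild type at high salt. In *prde-1* at low salt 20 of 34 nucleosomes (58.8%) were at 0, against 7 of 34 (20.6%) in wild type, and only 0.331% of protein-coding genes had a larger share at 0 in that *prde-1* library.

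Set in order by the median of their 8 levels, the genes ran vit-1 (25.9), vit-6 (39.4), vit-2 (66.4), vit-4 (100.2), vit-5 (102) and vit-3 (112). The quartile ranges of neighbours in this order overlap in every library, and without replicate libraries no neighbouring pair can be separated. The near-identical vit-3 and vit-4 stood on opposite sides of the gene median in wild type at high salt and in ethanol at both salts.

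At vit-3 and vit-4 the tables hold a stretch of about 3 kb with no nucleosome at all. At vit-3 no center was listed over 3023 bp in the low-salt *prde-1* table, 3041 bp in the high-salt *prde-1* table, 2993 bp in the low-salt auxin table and 3019 bp in the high-salt auxin table. At vit-4 the same 4 distances were 2990, 2005, 2988 and 2933 bp. The stretch began 1643 to 1726 bp into vit-3 and 1664 to 1688 bp into vit-4 and ended 4662 to 4749 bp into vit-3. Only 286 to 298 of the 541773 to 568629 intervals between successive centers in a table reached 2 kb, 30 to 36 of them on X. The longest interval of vit-5 was 567 to 681 bp, longer than the longest one of 95.6% to 97.3% of genes, and those of vit-1, vit-2 and vit-6 were 306 to 644 bp.

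The empty stretch coincides with repeated sequence. A base was counted as repeated when it lies in a 100-base word found elsewhere in the genome, and of the bases between the flanking centers 97.0% to 99.0% were repeated at vit-3 and 98.7% to 99.95% at vit-4. In the longest interval of vit-5 the share was 93.6% to 98.2%. The longest such run of vit-3 covers 2989 bp, from 1673 to 4661 bp after the 5′ end, in which vit-4 differs from vit-3 at 5 bases and vit-5 at 58. The authors kept reads of mapping quality 30 or more, and an aligner gives a lower quality to a read that matches several copies equally well. Repeated bases made up 64.7% of the vit-3 window, 67.4% of the vit-4 window, 43.5% at vit-5, 8.51% at vit-1, 8.71% at vit-2 and 0% at vit-6. Over vit-1 to vit-5, centers were listed at 1.47 to 1.94 per kb of repeated sequence and at 5.11 to 5.45 per kb of the other sequence, and the median protein-coding gene had 5.56 to 5.83 per kb. The low nucleosome number of vit-3 and vit-4 (2.39 to 2.99 per kb, fewer than all but 0.0415% to 0.142% of genes) cannot be told apart from a loss of reads in repeated sequence.

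Within the empty stretch of vit-4 a single nucleosome was listed, in the high-salt *prde-1* table only, 3674 bp after the 5′ end. Its occupancy was 39.8 in *prde-1* and 102 in wild type. At both genes a nucleosome returned about 1.1 kb after the 5′ end in all 4 tables. At vit-4 its occupancy was 164 in *prde-1* and 267 in wild type at low salt, 489 in *prde-1* and 297 in wild type at high salt, 97.9 in auxin and 129 in ethanol at low salt, and 99.1 in auxin and 37.5 in ethanol at high salt. At vit-3 it was 104 in *prde-1* and 124 in wild type at low salt, 303 in *prde-1* and 349.9 in wild type at high salt, 25.1 in auxin and 91.7 in ethanol at low salt, and 59.2 in auxin and 237 in ethanol at high salt. This nucleosome was chosen after its values were seen, and because it overlaps repeated sequence, part of its reads may not have been placed.

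Nucleosomes that touch repeated sequence were compared with the others by their signal. In vit-1 to vit-5 the median occupancy of those with some repeated base was 78.5 in *prde-1* and 79.5 in wild type at low salt, 89.7 in *prde-1* and 159 in wild type at high salt, 0 in auxin and 90.2 in ethanol at low salt, and 54.5 in auxin and 39.3 in ethanol at high salt. For those with none it was 39.9 in *prde-1* and 52.3 in wild type at low salt, 101 in *prde-1* and 98.8 in wild type at high salt, 0 in auxin and 61.5 in ethanol at low salt, and 96.9 in auxin and 59.3 in ethanol at high salt. The class with repeated bases was the higher one in 4 of 8 libraries, the lower one in 3 and equal in 1. At vit-3 and vit-4, the genes with the most repeated sequence, it was the lower one in 8 of 8 libraries. There the median with some repeated base was 80.8 in *prde-1* and 51.9 in wild type at low salt, 93.4 in *prde-1* and 115 in wild type at high salt, 0 in auxin and 96.8 in ethanol at low salt, and 48.0 in auxin and 34.3 in ethanol at high salt. With none it was 105 in *prde-1* and 57.9 in wild type at low salt, 191 in *prde-1* and 151 in wild type at high salt, 105 in auxin and 130.4 in ethanol at low salt, and 219 in auxin and 58.7 in ethanol at high salt. These are medians of 14 to 16 nucleosomes with repeated bases and 18 to 24 without, and the part of mapping in them was not tested.

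The H3 signal was uneven along the windows, which were divided into the upstream kilobase, the gene on either side of its midpoint and the downstream 500 bp. In *prde-1* at low salt the median was 154 upstream, 13.4 in the 5′ part of the genes, 33.7 in the 3′ part and 86.5 downstream, against 54.9, 70.0, 51.6 and 113 in wild type. At high salt it was 165, 69.1, 53.3 and 128 in *prde-1*, against 136, 103, 109 and 107 in wild type. In auxin at low salt it was 149, 0, 0 and 17.6, against 98.3, 61.7, 47.0 and 115 in ethanol. At high salt it was 176, 35.1, 38.2 and 189.9 in auxin, against 59.7, 17.2, 59.8 and 65.3 in ethanol. Pooled over the genes, the upstream median was higher in *prde-1* than in wild type and in auxin than in ethanol (4 of 4 comparisons). The 5′ part was lower in 3 of 4, the exception being auxin at high salt. With the genotype field in place of the titles these counts would be 3 of 4 and 2 of 4. Single genes, grouped by the titles, did not all follow the pooled upstream median. It was lower in *prde-1* at vit-5 at low salt, and at vit-2 and vit-5 at high salt. In auxin it was lower at vit-2, vit-3 and vit-5 at low salt, and at vit-1 at high salt. No upstream median over all genes is given here.

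A gene body below its flanks was common in the genome too. Body medians were below flank medians for 5 of 6 vitellogenin genes in *prde-1* and 3 of 6 in wild type at low salt, and for 5 of 6 in *prde-1* and 2 of 6 in wild type at high salt. They were below for 5 of 6 in auxin and 4 of 6 in ethanol at low salt, and for 6 of 6 in auxin and 4 of 6 in ethanol at high salt. Among 19014 to 19266 protein-coding genes the share was 55.4% to 64.8%.

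**Figure D2:**
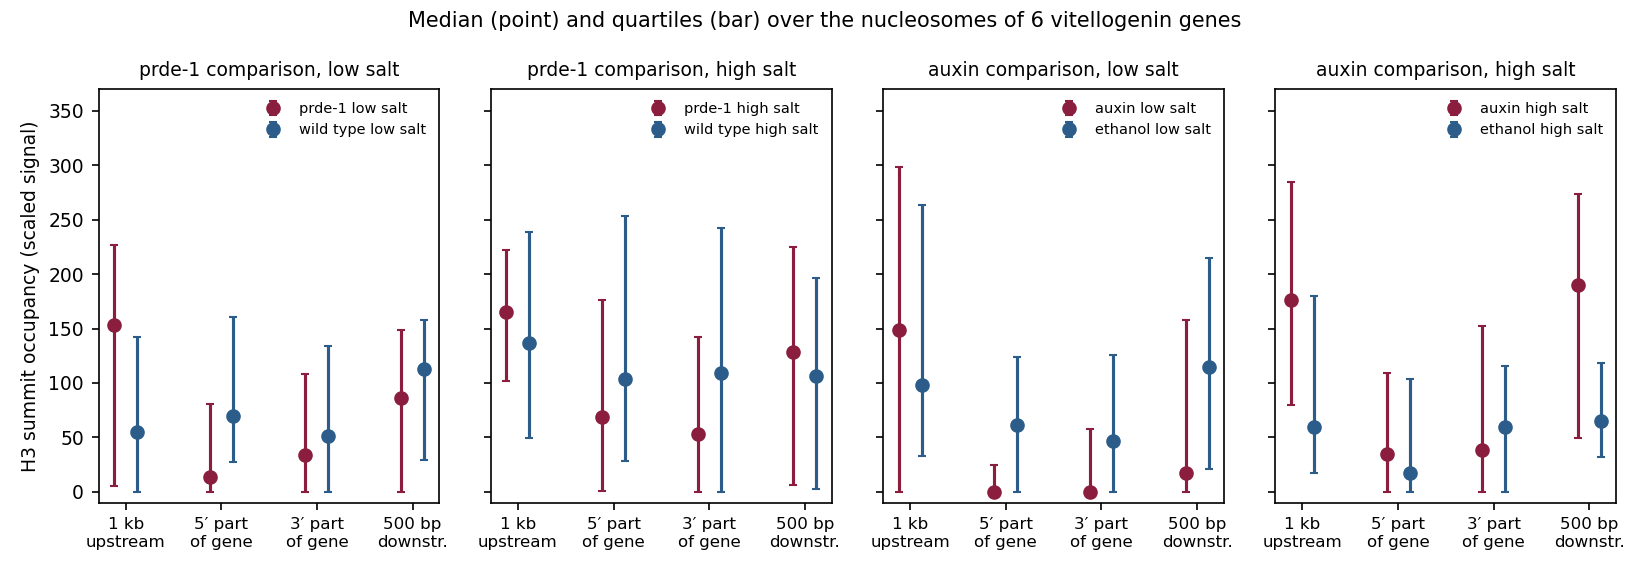
Median summit occupancy (points, scaled signal) with quartiles (bars) over the nucleosomes of the 6 vitellogenin genes, in 4 segments along the direction of transcription, for each comparison. *prde-1* or auxin is on the left of each pair in dark red and wild type or ethanol on the right in blue. Upstream medians are 149 to 176 in the *prde-1* and auxin libraries, and both parts of the genes have a median of 0 in auxin at low salt.

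Base composition moved with this pattern. The authors' methods describe a GC correction of the native libraries, but only the *prde-1* tables, and not the auxin tables, are named as corrected. Nucleosomes in the vitellogenin bodies had a median of 47.6% to 48.6% GC over the length of a nucleosome core, against 34.7% to 35.4% for all nucleosomes and 32.0% to 34.0% for those upstream of the genes. In the low-salt auxin library the median occupancy of all nucleosomes was 53.6 at 50% GC or more and 170.4 below 30%, and in ethanol it was 130.5 and 140.3. In the low-salt *prde-1* library these values were 97.5 and 149, against 125 and 137 in wild type. At high salt they were 74.6 and 182 in auxin, and 68.3 and 149.5 in ethanol. In the high-salt *prde-1* library they were 136.5 and 130.7, against 136.6 and 121 in wild type. Vitellogenin nucleosomes of 45% to 50% GC had a median of 0 in auxin at low salt, against 62.5 for all nucleosomes in that range, and 0 in *prde-1* at low salt, against 99.5. In this range they were below all nucleosomes in 8 of 8 libraries, and the part of composition in the differences between libraries was not tested.

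Nucleosome spacing was measured as the distance between successive summits of a library. Over the 6 genes its median was 187.5 bp in *prde-1* and 189 bp in wild type at low salt, and 181 bp in *prde-1* and 188.5 bp in wild type at high salt. It was 201.5 bp in auxin and 199 bp in ethanol at low salt, and 184 bp in auxin and 199 bp in ethanol at high salt. Over all nucleosomes it was 164 to 179 bp, so the vitellogenin value was the longer one in each of the 8 libraries. Between summits above 0 the vitellogenin medians were 209 to 279 bp, and no such value over all nucleosomes is given here. By gene the median ran from 162 bp (vit-6 in *prde-1* at high salt) to 244 bp (vit-3 in ethanol at both salts). vit-6, without repeated sequence, had 177 to 219 bp in all libraries except that of *prde-1* at high salt.

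The distance between the nucleosomes beside the 5′ ends varied among the copies, with overlapping ranges. At vit-2 the summits on either side of the 5′ end were 139 to 246 bp apart, at vit-5 115 to 235 bp and at vit-6 171 to 311 bp. At vit-1 they were 97 to 208 bp apart in the *prde-1*, wild-type and low-salt ISW-1 libraries and 590 bp in both high-salt ISW-1 libraries. At vit-3 they were 525 to 807 bp apart, and at vit-4 207 to 788 bp. The median over all protein-coding genes was 184 to 194 bp between centers. Between summits above 0 the distances were 121 to 732 bp at vit-1, 139 to 995 bp at vit-2 and 525 to 1260 bp at vit-3. They were 207 to 1108 bp at vit-4, 126 to 1304 bp at vit-5 and 197 to 2618 bp at vit-6, so the ranges overlapped. At vit-3 the first summit downstream was 501 to 802 bp into the gene, and its first 703 bp are repeated but for single bases. The same holds for the first 694 bp of vit-4. At both genes the distance cannot be told apart from loss of reads.

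The upstream summit of the pair lay 53 to 272 bp before the 5′ end of vit-6, 83 to 149 bp before that of vit-2, 19 to 154 bp before that of vit-5, 12 to 186 bp before that of vit-4, 3 to 136 bp before that of vit-1 and 5 to 68 bp before that of vit-3. At vit-2, whose VPE1 letters end 51 bases before the 5′ end, its occupancy was 0 in *prde-1* and 0 in wild type at low salt, 0 in auxin and 25.3 in ethanol at low salt, and 0 in auxin and 17.3 in ethanol at high salt. It was 38.8 in *prde-1* and 134 in wild type at high salt. At vit-6 it was 162 in *prde-1* and 194 in wild type at low salt, 0 in *prde-1* and 157 in wild type at high salt, 272 in auxin and 437 in ethanol at low salt, and 14.9 in auxin and 0 in ethanol at high salt. No vitellogenin promoter kept a value above 0 on both sides of its 5′ end in all 8 libraries.

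The highest single nucleosome of a vitellogenin gene lay at the 3′ end of vit-6, about 5.1 kb after its 5′ end and inside the gene, and recurred in all 4 tables. Its occupancy was 491 in *prde-1* and 789.9 in wild type at low salt, and 576 in *prde-1* and 678 in wild type at high salt. It was 523 in auxin and 226 in ethanol at low salt, and 271 in auxin and 216 in ethanol at high salt. It was the highest nucleosome of vit-6 in the treated library of 3 of the 4 tables. Other high nucleosomes were upstream, such as the one 399 bp before vit-4 with 661 in *prde-1* and 244 in wild type at high salt, and the one 974 bp before vit-2 with 676 in auxin and 161 in ethanol at low salt. At vit-1 the highest one of the low-salt auxin library stood 273 bp upstream, with 467 in auxin and 7.0 in ethanol.

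Fuzziness is the spread of read positions around a dyad, a score in which a higher value means a less fixed position. Over the 6 genes its median was 44.5 in *prde-1* and 38.1 in wild type at low salt, 40.3 in *prde-1* and 40.7 in wild type at high salt, 51.5 in auxin and 38.6 in ethanol at low salt, and 40.3 in auxin and 45.7 in ethanol at high salt. All nucleosomes had medians of 40.2 to 43.6. Many vitellogenin nucleosomes listed at 0 carried the same score, 58.2, so at 0 the score need not be a spread of reads. The medians over all vitellogenin nucleosomes therefore also reflect the share at 0. The score was also taken at an occupancy of 50 or more. There the vitellogenin medians were 28.4 to 34.4 and those of all nucleosomes 34.7 to 37.7, the vitellogenin value being lower in each library.

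At low salt the vitellogenin windows were lower in *prde-1* than in wild type, with the lowest median change at vit-6. The median log2 change, with a pseudocount of 1, was -0.37 over 168 nucleosomes, against 0 over all nucleosomes, and it was -0.000607 without vit-6. At least 2-fold higher were 44 (26.2%), where 30.1% of all nucleosomes were, and at least 2-fold lower were 72 (42.9%), where 31.0% were. vit-6 had a median log2 change of -3.03, 19 of 34 nucleosomes lower and 6 higher, and 16 at 0 in *prde-1* only against 3 in wild type only. Only 0.594% of protein-coding genes had a lower median change, and the median over all nucleosomes of IV was -0.17. The other medians were -0.14 at vit-1, -0.21 at vit-2, 0 at vit-3, -0.40 at vit-4 and -0.16 at vit-5. The level of vit-4 was nevertheless the higher one in *prde-1* (104, against 59.1 in wild type). At least 2-fold lower were 16 nucleosomes at vit-1, 16 at vit-2, 4 at vit-3, 8 at vit-4 and 9 at vit-5. At least 2-fold higher were 10 at vit-1, 7 at vit-2, 6 at vit-3, 9 at vit-4 and 6 at vit-5. Within vit-6 the largest change of a nucleosome above the table's median occupancy was 1702 bp after the 5′ end, with 0 in *prde-1* and 278 in wild type.

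At high salt *prde-1* and wild type differed less by the median change over the 6 genes. The median log2 change was -0.01 over 174 nucleosomes and 0.00 over all. At least 2-fold higher were 47 (27%), against 32.8% of all nucleosomes, and at least 2-fold lower were 64 (36.8%), against 31.2%. vit-5 had the lowest median, -1.02, with 17 of 32 nucleosomes lower and 5 higher, and 6.22% of genes had a lower change. Among its nucleosomes above the table's median occupancy the largest change stood 4580 bp after the 5′ end, with 49.6 in *prde-1* and 488 in wild type. The medians of the other 5 genes were between -0.11 and 0.07. By the log2 ratio of summed occupancy the high-salt difference was not the smaller one, with -0.36 at high salt and -0.32 at low salt. Without vit-6 the median change was -0.00964 at high salt and -0.000607 at low salt.

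Auxin against ethanol at low salt gave the lowest vitellogenin values. The median log2 change was -0.71 over 156 nucleosomes, against -0.09 over all nucleosomes and 0 over those on X, and it was -1.25 without vit-6. At least 2-fold lower were 76 (48.7%), where 35.7% of all nucleosomes were, and at least 2-fold higher were 35 (22.4%), where 28.5% were. In the gene bodies the median was -1.78, and 58 of 106 nucleosomes were lower and 19 higher. In the flanks it was -0.15, with 18 of 50 lower and 16 higher. vit-5 had a median of -3.75 and vit-3 of -2.60, and 0.964% and 2.20% of genes had lower changes than these. The medians were -0.46 at vit-1, -0.73 at vit-2, -0.71 at vit-4 and 0 at vit-6. At vit-3 10 of 16 nucleosomes were lower and 1 was higher, and the higher one lay 688 bp upstream with 356 in auxin and 0 in ethanol.

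At high salt the vitellogenin nucleosomes were higher in auxin than in ethanol. The median log2 change was 0.26 over 161 nucleosomes, against 0 over all nucleosomes and 0.30 over those on X. At least 2-fold higher were 70 (43.5%), against 35.3% of all nucleosomes, and at least 2-fold lower were 49 (30.4%), against 32.2%. The flanks had a median of 1.22 and the bodies of 0. vit-4 was highest, at 1.38, with 12 of 19 nucleosomes higher and 1 lower, and 92.6% of genes had a lower change. Among its nucleosomes above the table's median occupancy the largest change was 166 bp upstream, with 584 in auxin and 56.6 in ethanol. The medians were 0.30 at vit-2, 0.28 at vit-3, 0.16 at vit-5 and 0 at vit-1 and vit-6.

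**Figure D3:**
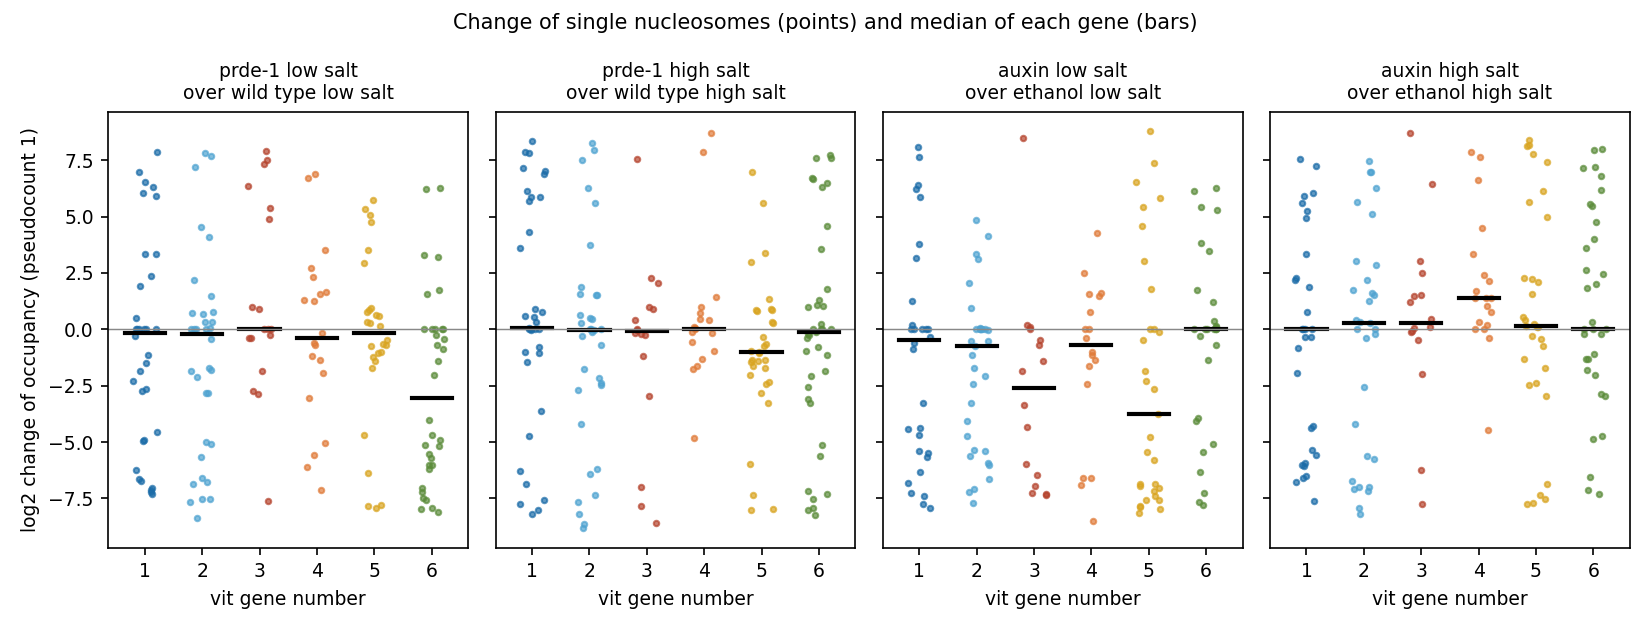
Log2 change of summit occupancy (vertical axis, pseudocount of 1) of each nucleosome (points) in the window of each vitellogenin gene (horizontal axis), with the gene's median as a black bar. Panels give *prde-1* over wild type and auxin over ethanol at low and high salt. Points at the extremes are nucleosomes listed at 0 in one library, and the lowest medians are vit-5 (-3.75) and vit-3 (-2.60) in auxin at low salt and vit-6 (-3.03) in *prde-1* at low salt.

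Median fuzziness differences were 2.13 (low salt) and 1.59 (high salt) in *prde-1* minus wild type, and 9.90 (low salt) and -0.62 (high salt) in auxin minus ethanol. Over all nucleosomes they were 0.41 (low salt) and 0.45 (high salt) in *prde-1* minus wild type, and 1.29 (low salt) and 0.18 (high salt) in auxin minus ethanol. Among nucleosomes of at least 50 in both libraries the low-salt values were -1.28 in *prde-1* minus wild type and 3.57 in auxin minus ethanol. Without vit-6 the low-salt *prde-1* value was -1.10 and the high-salt auxin value 2.26. Except at 50 or more, these differences include nucleosomes listed at 0, many of which share the score 58.2.

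Genes that act with the vitellogenins were taken from a list of 12 that includes rme-2 (the yolk receptor of oocytes), dsc-4 (a lipid transfer protein that loads yolk particles), unc-62, ceh-60 and the intestinal GATA factors elt-2 and elt-7. All 12 were measured in each library. Their median level was 102 in *prde-1* and 123 in wild type at low salt, 154 in *prde-1* and 133 in wild type at high salt, 128 in auxin and 141 in ethanol at low salt, and 105 in auxin and 104 in ethanol at high salt. The number of them below the median gene was 3 to 8 of 12, against 3 to 6 of 6 vitellogenin genes. rme-2, which germ cells use, had 101 in *prde-1* and 183 in wild type at low salt, and 256 in *prde-1* and 304 in wild type at high salt. It had 90.7 in auxin and 173 in ethanol at low salt, and 115 in auxin and 274 in ethanol at high salt. Its level was lower in the *prde-1* and auxin libraries at both salts. dsc-4 was at most 108 (wild type at high salt) and as low as 31.3 (ethanol at high salt).

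Marker lists of tissues gave the same libraries another order. The 4 muscle genes were all below the median gene in each library, at list medians of 24.7 to 77.1. Of 8 or 9 intestine genes measured of 10, 4 to 8 were below it. The germ line list of 10 had 1 to 3 genes below it in the *prde-1*, wild-type and ethanol libraries and 7 (low salt) and 6 (high salt) in auxin. The median change of that germ line list in auxin against ethanol was -0.87 (low salt) and -1.16 (high salt), with 0 of 10 genes above 0 in either. The intestine list had -0.24 (low salt) and 0.48 (high salt) and the muscle list -0.69 (low salt) and 0.57 (high salt), against medians over the 6 vitellogenin genes of -0.72 (low salt) and 0.22 (high salt). In the low-salt *prde-1* comparison the intestine list had -0.62, with 5 of 8 genes below 0. These lists describe H3 occupancy, not expression, and their part in the vitellogenin values was not tested.

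The genes whose levels were most like the mean vitellogenin profile were F22B3.8 on IV, B0379.7 on I and F54H5.3 on II. Likeness was the Euclidean distance of log2 levels, centered on each library's median gene, over 8 libraries and 18548 genes. The distances were 1.41, 1.58 and 1.59, while the vitellogenin genes themselves stood 2.26 (vit-2) to 4.8 (vit-6) from their own mean.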

How the data were processed

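As the study's methods state, paired reads were aligned by the authors to ce11 with Bowtie2 and kept at a mapping quality of 30 or more. Duplicates were removed, 2 samples per group were downsampled and merged, GC content was corrected, and fragments between 140 and 200 bp remained. The methods state the GC correction for all native libraries, while only the *prde-1* tables carry it in their names. DANPOS3 called nucleosomes with input as control. The labels also list MACS2. Tool versions are not given in the sources used here. Of 52 samples, 16 H3 samples and, through subtraction, 16 inputs enter. The other 20 were not used here.

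The deposited occupancy values are a signal at each summit, which the authors brought to a common library total, and the deposited fuzziness is a score. Summit and center positions were deposited in bp on ce11. The authors' log2 fold changes, p-values and false discovery rates, which compare the same pairs, were not used.

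Genes came from Ensembl release 115, and sequence from RefSeq assembly WBcel235, the same assembly as ce11. Medians, shares at 0 and log2 changes with a pseudocount of 1 were computed in Python 3.11.15 with pandas 2.3.3 and numpy 2.4.6, and copies were aligned with MAFFT 7.526. Changes of known size put into 1 table were checked to come back with the right sign; rows at 0 in both libraries pull a median towards 0. The rule on names took the 6 genes, 12 yolk pathway genes of which those with a stated role or range are named, the 3 genes with the most similar levels, and in each table and gene the nucleosome highest in the treated library and the one with the largest change among those above the table's median. The members and lists were chosen with earlier results of these data known. Precision per nucleosome cannot be given because depth is unknown. Alternatives were gene bodies only, other measures of level, other pseudocounts and filters, single-copy nucleosomes, other word lengths and the family without vit-6.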

Additional observations from a re-analysis of the deposited data

Results flagged for a closer look

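At 4 genes the median log2 change of auxin against ethanol had opposite signs at the 2 salts, each at least 0.1 from 0. vit-2 had 0.30 at high salt and -0.73 at low salt, and vit-3 had 0.28 at high salt and -2.60 at low salt. vit-4 had 1.38 at high salt and -0.71 at low salt, and vit-5 had 0.16 at high salt and -3.75 at low salt. The difference between salts was not tested, as each value compares 1 pair of merged libraries. The share of all protein-coding genes with such a pair of signs is not given here, so this count cannot be judged against it. Over all nucleosomes of X the median change was 0.30 at high salt and 0 at low salt. The intestine list (0.48 at high salt and -0.24 at low salt) and the muscle list (0.57 at high salt and -0.69 at low salt) had the same pair of signs. For *prde-1* against wild type no gene had such a pair of values.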

How the results depend on the processing

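Each kind of value was recomputed under its own set of alternatives, not under all of them. Single-copy nucleosomes were used for levels, shares at 0 and occupancy changes only, and promoter distances were not recomputed without vit-6. A value was counted as moved when it left the exact binomial 95% interval of the median, or of the share, over its nucleosomes. That interval covers the spread of nucleosomes, not of animals. Of 208 recomputed values 165 stayed inside and 43 moved, and none changed sign against an interval that left out 0. Leaving out vit-6, single-copy nucleosomes only, other word lengths, a pseudocount of 10, a minimum of 50 in one library, nucleosomes above 0 in both, the ratio of sums and subtraction of the table median moved none past these intervals, which are wide. Within them, leaving out vit-6 took the median log2 change of *prde-1* at low salt to -0.000607 and that of auxin at low salt to -1.25, and the fuzziness differences to -1.10 (*prde-1* low salt) and 2.26 (auxin high salt), both of opposite sign to the reported ones. At 50 or more in both libraries the fuzziness difference of *prde-1* at low salt was -1.28. In what follows values are in the order *prde-1* low salt, wild type low salt, *prde-1* high salt, wild type high salt, auxin low salt, ethanol low salt, auxin high salt and ethanol high salt. Levels over nucleosomes above 0 were 99.8, 110.0, 133, 173, 98.5, 114, 138 and 97.5. Mean levels moved to 79.1, 99.0, 75.5, 95.8, 109.9 and 78.1, with both high-salt values of the *prde-1* table unmoved. Spacing between summits above 0 was 270, 235.5, 224.5, 209, 279, 241, 214 and 251 bp. Fuzziness at an occupancy of 50 or more was 28.4, 30.8, 33.5, 32.4, 34.4, 29.5, 33.9 and 31.4. In gene bodies only, the share at 0 in auxin at low salt was 60.4%, the level in auxin at high salt 36.8 and the spacing in ethanol at high salt 231.5 bp. Spacing between table centers was 176.5 bp in wild type and 185 bp in ethanol at high salt. The fuzziness difference of auxin at low salt was 3.57 at 50 or more in both libraries. Point occupancy, which is read at the position of largest difference in each nucleosome, gave a level of 0 in *prde-1* at both salts and in ethanol at high salt, and median log2 changes of -5.51, -6.24, -5.56 and 5.92 in the *prde-1* low-salt, *prde-1* high-salt, auxin low-salt and auxin high-salt comparisons. Leaving out a replicate was not possible because the authors merged the samples. No paired analysis was possible because the replicates of each group are merged in the tables.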
